A study of Rattus norvegicus with 14 samples.

Results

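Heat shock proteins and folding chaperones were examined in PCCL3 cells, a rat thyroid follicular cell line that keeps thyroid-specific genes in culture. The genes were the rows of the count table whose symbol belongs to the HSP70, HSP110, HSP90, HSP60/HSP10 and small heat shock families, the J proteins (Dnaja, Dnajb, Dnajc), the TRiC/CCT ring and the protein disulfide isomerases (Pdia), together with Calr, Canx, Hyou1, P4hb, Xbp1, Ern1, Creld2, Sdf2l1 and Tcp1. This rule found 91 of 16816 gene symbols: 45 coding for cytosolic (or nuclear) proteins, 26 for proteins of the endoplasmic reticulum (ER), 7 for mitochondrial proteins and 13 for J proteins and a small-HSP-named gene placed elsewhere or with no settled place.

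RNA was sequenced from 2 stably transfected PCCL3 lines. One line (PPFP cells) makes the human PAX8-PPARG fusion protein, tagged with 3xMyc at the N-terminal end. The other (EV cells) holds the empty vector. Each line received vehicle (DMSO) or 1 μM pioglitazone, a PPARG agonist, for 16 hours, with 3 libraries in each of the 4 groups, and the study's methods name 3 independent experiments. Every group was grown with thyrotropin, insulin and hydrocortisone. Whether each line is a single clone is not given in the sources used here, so the fusion protein and any other difference between the lines cannot be told apart.

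Chaperones bind unfolded or misfolded protein and help it reach its folded shape. In the cytosol, J proteins hand clients to HSP70, which passes some of them to HSP90 or to the TRiC ring, and small HSPs hold clients for later refolding. Mitochondria use their own HSP70 and the HSP60/HSP10 chamber. In the ER, where thyrocytes fold the very large prohormone thyroglobulin, HSP70 (BiP, from Hspa5), HSP90 (GRP94, from Hsp90b1), lectins and disulfide isomerases share the work, and the unfolded protein response (UPR) adjusts their genes through IRE1 (from Ern1) and XBP1, PERK and ATF4, and ATF6. The heat shock factor HSF1 does so for the cytosolic and several mitochondrial genes.

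Libraries held 23724703 to 35240176 counts on genes, of which the chaperone genes took 1.95% to 2.97%. Of the 91 genes, 78 had enough counts to be tested in at least 1 comparison, 13 in none, and 4 (Hspa1a, Dnajb12, Dnajc15 and Dnajc5g) had no count in any library. Hspa1a and Hspa1b are near-identical copies whose reads the counting could not separate, so both are uncertain. The thyroid marker Tg was at 6647 to 12010 CPM (the count scaled to a fixed library size with TMM factors) in every library, whereas of 7 fibroblast markers Col3a1, Dcn and Lum had no counts, Col1a2 and Pdgfrb at most 1, Col1a1 stood at 0.87 to 3.55 CPM and Pdgfra at 19.0 to 32.1 CPM. The sum over 8 thyrocyte markers, most of it Tg, was 10160 to 13410 CPM in EV cells and 13340 to 14040 in PPFP cells without pioglitazone. With it the sums were 10830 to 14100 and 9995 to 10190 CPM. Of these 8 markers, 2 were higher and 4 lower in PPFP cells without pioglitazone (Slc5a5, the iodide transporter, was lower by 1.73 on the log2 scale), and the part of this difference in the chaperone results was not tested. The sum over the fibroblast markers, nearly all of it Pdgfra, was 22.4 to 24.2 CPM in EV cells and 20.4 to 34.5 in PPFP cells.

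The promoter windows in which response elements were searched are shown for the genes on which the results turn. They come from RefSeq (build GRCr8), run 5′ to 3′ on the gene's strand from 250 bases before to 50 bases after the start site, and were found for 72 of the 91 genes (73 windows). Capitals mark matches, on either strand, to the heat shock elements GAANNTTC and TTCNNGAA or to the ER stress element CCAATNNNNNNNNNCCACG. The first gene, Hspd1 (the HSP60 chaperonin; chr9:64083988-64084287, minus strand), lies head to head with Hspe1 (its HSP10 lid), with 290 bases between the start sites. The windows of both genes share 211 bases and, within them, the run of 3 overlapping heat shock elements shown in capitals:
Hspd1: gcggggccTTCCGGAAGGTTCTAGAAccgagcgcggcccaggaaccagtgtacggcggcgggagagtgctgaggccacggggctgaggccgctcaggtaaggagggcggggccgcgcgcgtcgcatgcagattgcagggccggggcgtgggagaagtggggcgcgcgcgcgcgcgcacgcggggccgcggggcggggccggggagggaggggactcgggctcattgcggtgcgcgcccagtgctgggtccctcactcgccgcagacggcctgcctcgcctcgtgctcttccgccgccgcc
The next 3 genes code for ER HSP90 (Hsp90b1; chr7:23012244-23012543, minus strand), ER HSP70 (Hspa5; chr3:38452766-38453065, plus strand) and the UPR transcription factor Xbp1 (chr14:84604373-84604672, plus strand), and each window holds at least 1 ER stress element:
Hsp90b1: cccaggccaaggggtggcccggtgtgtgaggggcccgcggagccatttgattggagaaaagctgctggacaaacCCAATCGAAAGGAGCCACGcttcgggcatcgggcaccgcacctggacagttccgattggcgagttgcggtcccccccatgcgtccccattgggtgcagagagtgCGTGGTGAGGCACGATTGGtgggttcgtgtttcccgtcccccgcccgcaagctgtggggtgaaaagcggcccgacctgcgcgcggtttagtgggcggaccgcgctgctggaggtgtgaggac
Hspa5: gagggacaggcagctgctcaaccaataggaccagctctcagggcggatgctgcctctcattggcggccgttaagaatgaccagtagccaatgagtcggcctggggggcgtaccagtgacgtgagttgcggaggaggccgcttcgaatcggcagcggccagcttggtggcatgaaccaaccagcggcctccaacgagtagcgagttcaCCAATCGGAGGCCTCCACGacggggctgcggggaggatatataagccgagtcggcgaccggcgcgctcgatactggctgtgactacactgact
Xbp1: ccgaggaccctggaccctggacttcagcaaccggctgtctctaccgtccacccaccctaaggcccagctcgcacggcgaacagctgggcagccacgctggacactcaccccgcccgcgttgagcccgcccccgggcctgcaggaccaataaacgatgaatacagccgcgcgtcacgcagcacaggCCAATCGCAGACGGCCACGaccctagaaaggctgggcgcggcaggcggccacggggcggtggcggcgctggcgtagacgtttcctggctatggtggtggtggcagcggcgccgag

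The ER stress element was present in 7 of 24 windows of ER chaperone genes and in 0 of 36 cytosolic and 0 of 5 mitochondrial ones. Over all RefSeq windows of the same length it was found in 0.0657%. Besides Hsp90b1, Hspa5 and Xbp1 it was found in Calr, Canx, Creld2 and Dnajc3, and a second form, ATTGGNCCACG (0.0508% of all windows), in Dnajb11 and Hyou1. In Hyou1 the XBP1 element TGACGTGG overlaps the second form. That XBP1 element was found in 3 of 24 ER windows and 0.595% of all. Heat shock elements were commoner in general: GAANNTTC was found in 9 of 36 cytosolic, 2 of 24 ER and 3 of 5 mitochondrial windows, and in 8.59% of all. TTCNNGAA was found in 9, 0 and 3 of them and in 8.77% of all. The mitochondrial matches of Hspd1 and Hspe1 are the same bases, counted for each gene. The letters of an ATF4 site (TGATGCAAT) and of a PPARG direct repeat (AGGTCANAGGTCA) were in none of the 73 windows. A match is a description of letters, not a measured site.

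The first comparison asked how the chaperone genes of PPFP cells differed from those of EV cells without pioglitazone. Cytosolic chaperones were more often called higher than lower in PPFP cells, and those of the ER were called in both directions. Of 76 genes tested, 17 were higher and 13 lower at an adjusted p under 0.05 (quasi-likelihood test in edgeR, with p adjusted by Benjamini-Hochberg over all genes, n = 3 and 3), against 22% higher and 23.1% lower of all 10264 genes tested. With a fold change above 2 as well, 5 were higher and 2 lower, where 14.6% of all genes passed in either direction. Among 37 cytosolic genes 14 were higher and 4 lower (median log2 fold change 0.29, against 0.0016 over all genes). Among 24 ER genes 2 were higher and 5 lower (median −0.072), and the share lower, 20.8%, was close to that of all genes. Of 6 mitochondrial genes 1 was higher, and of the 9 others none was higher and 4 were lower. These counts moved with single libraries: the cytosol had 9 higher and 3 lower without EV replicate 1 and 10 and 2 without PPFP replicate 3, and the ER 4 higher and 6 lower without EV replicate 3 and 1 and 3 without PPFP replicate 3. No mitochondrial gene was called without EV replicate 1, and 2 were higher without EV replicate 2. In bulk RNA, fewer cells of one kind and less RNA per cell cannot be told apart.

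The same comparison in pioglitazone used separate libraries. It gave 21 higher and 15 lower of 78 genes (background 26.3% higher and 26.4% lower of 10291; with fold above 2, 6 higher and 4 lower against 19.7% in either direction). Without EV replicate 1 the split was 11 higher and 12 lower with pioglitazone, and 10 higher and 9 lower without it. Of the genes called, 26 were called in both comparisons, which is 26 of 30 without and 26 of 36 with pioglitazone. All 26 kept their direction (16 higher, 10 lower). Over all genes the shared calls were 86% of those without and 73.5% of those with pioglitazone, and 99.8% of them kept their direction, so the overlap of the chaperone genes (86.7% and 72.2%) was close to the background. The cytosol again had 15 higher and 4 lower of 39. The ER had 2 higher and 7 lower of 24, and the mitochondria 3 higher and 1 lower of 6. Without EV replicate 1 the cytosol had 8 higher and 3 lower and the mitochondria 1 and 1, and without EV replicate 3 the ER had 4 higher and 6 lower. Without any other single library the ER had 1 higher and 5 to 7 lower. The calls of these comparisons include Hspb2, Hspb7 and Dnajb7, which passed the filter on low counts only through the group where each is high and so had to differ; their counts are given without a test. Scaled by library size alone, with no TMM factor, the splits were 13 higher and 16 lower without and 17 higher and 19 lower with pioglitazone, and the median of all genes then stood at −0.080 and −0.125.

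**Figure D1:**
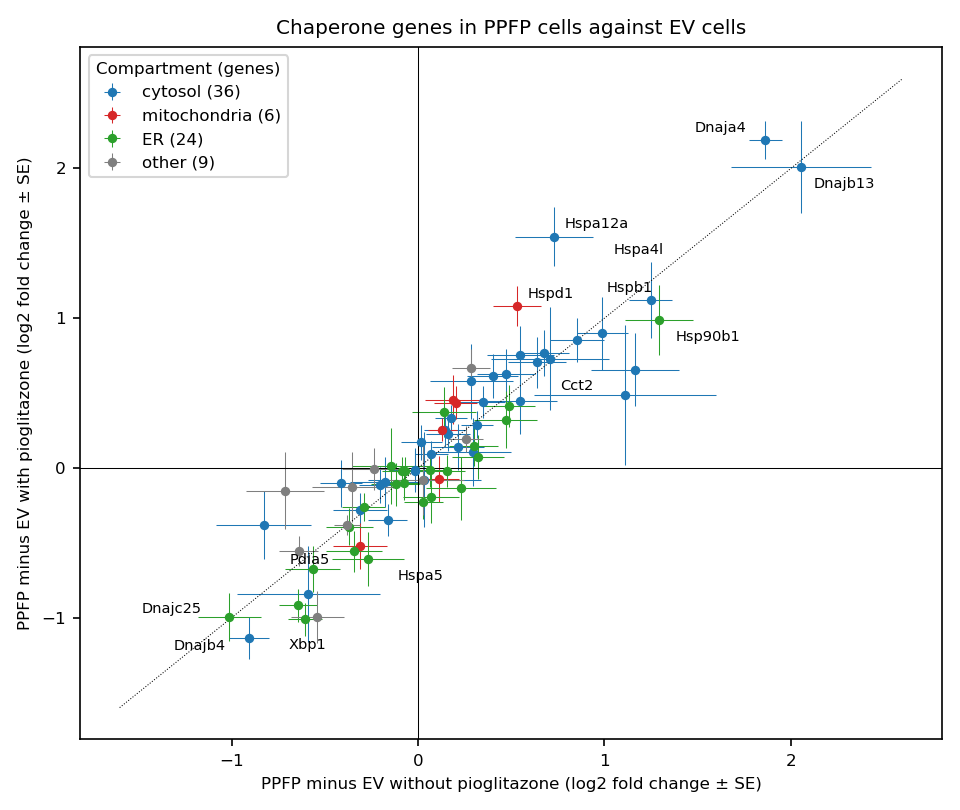
Log2 fold change of PPFP over EV cells for each chaperone gene tested in both comparisons, without pioglitazone on the x axis and with it on the y axis, both with the standard error (n = 3 libraries per group) and coloured by compartment; the dotted line marks equal values, and Hspb2 and Hspb7 are left out for low counts. Dnaja4 and Dnajb13 lie farthest up, Hsp90b1 stands apart from the other ER genes, and Hspd1 and Hspa12a lie above the dotted line.

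Among J proteins the smallest adjusted p was that of Dnaja4, a cytosolic partner of HSP70. It was at 28.5, 28.1 and 27.4 CPM in EV cells and at 109.7, 93.8 and 98.0 CPM in PPFP cells, 3.64-fold higher (log2 fold change 1.86 ± 0.090, SE, adjusted p = 8.5e-06). With pioglitazone its levels were 27.8, 31.8 and 25.8 CPM in EV cells and 148.2, 120.1 and 114.2 CPM in PPFP cells, 4.56-fold higher (2.19 ± 0.13, adjusted p = 1.7e-05). Every PPFP library was thus above every EV library, by a wide margin. Dnajb13, a J protein known from sperm flagella, was higher too (log2 fold change 2.05 ± 0.37, adjusted p = 0.0033, without pioglitazone). Its levels over both treatments were only 13 to 33 counts in EV libraries and 41 to 95 in PPFP libraries. With pioglitazone Dnajb7 had 2 to 9 counts in EV and 20 to 32 in PPFP libraries. Dnajc4 was higher by 0.67 ± 0.12 with pioglitazone (adjusted p = 0.0034). Dnajb6, which holds back protein aggregation, was higher by 0.31 (adjusted p = 0.020, and 0.086 at most over the alternatives, lost without EV replicate 1).

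Other J proteins were lower in PPFP cells. Dnajb4, an HSP70 partner of the same class as Dnajb1, was at 45.5, 51.0 and 45.1 CPM in EV and 22.4, 25.8 and 26.2 CPM in PPFP cells, lower by 0.91 ± 0.11 on the log2 scale (adjusted p = 0.00043), and by 1.14 with pioglitazone. Dnajc25, of the ER membrane, was at 112.3, 115.9 and 151.7 CPM in EV and 76.6, 50.7 and 57.9 CPM in PPFP cells (−1.01 ± 0.17, adjusted p = 0.0022), and was called lower with pioglitazone too. In neither gene did the groups overlap. Dnajc5, which chaperones synaptic and secretory vesicle proteins, was lower by 0.64 on the log2 scale (adjusted p = 0.0020), and Dnajc28 by 0.71 (adjusted p = 0.026), which differed by −0.15 with pioglitazone (adjusted p = 0.65). The Dnajc28 call was lost without EV replicate 1 or 2 or PPFP replicate 2 (adjusted p up to 0.075). Dnajc3, an ER partner of BiP that also restrains PERK, was lower by 0.57 (adjusted p = 0.017), a call lost without PPFP replicate 2 or 3 (up to 0.072), and by 0.68 with pioglitazone (adjusted p = 0.0083).

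In the cytosolic HSP70 family 4 genes of 8 were higher and 1 lower, and the constitutive Hspa8 was not called. Hspa4l, an HSP110-like exchange factor, was at 40.4, 48.0 and 41.4 CPM in EV and 89.6, 106.2 and 108.2 CPM in PPFP cells (log2 fold change 1.25 ± 0.11, adjusted p = 0.00014). With pioglitazone PPFP replicate 1 stood at 58.9 CPM beside 114.9 and 117.8, and the difference from EV cells was 1.12 ± 0.26 (adjusted p = 0.0084). Hspa2, a testis-enriched HSP70, was at 0.97, 1.24 and 0.96 CPM in EV and 2.09, 2.85 and 2.07 CPM in PPFP cells (1.16 ± 0.24, adjusted p = 0.0055), and differed by 0.66 with pioglitazone (adjusted p = 0.056, and 0.020 without PPFP replicate 1). Hspa4, an HSP70 exchange factor, was higher by 0.35 (adjusted p = 0.049) and by 0.44 with pioglitazone (adjusted p = 0.011). The first of these calls was lost without EV replicate 1 or 2 or PPFP replicate 1 or 3 (adjusted p up to 0.16), and the second without EV replicate 1 (0.052). The distant HSP70 relative Hspa12a was higher by 0.73 (adjusted p = 0.025, lost without EV replicate 2 or 3 or PPFP replicate 2, up to 0.081) and by 1.54 with pioglitazone (adjusted p = 0.00054). Hspa12b was lower by 0.83 (adjusted p = 0.031), a call lost without any 1 of 5 libraries, EV replicate 1 or 3 or any PPFP replicate (up to 0.11).

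Hspa8, which codes for the constitutive cytosolic HSP70, split the PPFP libraries. Its levels were 890.7, 814.7 and 1080 CPM in EV cells and 1475, 644.9 and 690.3 CPM in PPFP cells, and 1325, 616.3 and 601.8 CPM in PPFP cells with pioglitazone. PPFP replicate 1 was thus high in both treatments, at 2.21 and 2.18 times the mean of replicates 2 and 3, and the groups overlapped (log2 fold change 0.034 ± 0.30, adjusted p = 0.94). Without that library the difference was −0.43 (adjusted p = 0.043), and with pioglitazone −0.54 (adjusted p = 0.053). Hsph1 (HSP110) and Dnaja1 had the same arrangement, with ratios of 1.70 and 1.80 for Hsph1 and 1.61 and 1.68 for Dnaja1 (the latter named after its values were seen). Replicate 1 was the highest PPFP library in both treatments for 23 of 39 cytosolic genes (59%), 19 of 24 ER genes (79.2%) and 37.4% of all 10482 genes. In the same PPFP libraries Trib3, a target of ATF4, was at 5.10 and 10.6 CPM in replicate 1 and at 54.4 to 103.7 CPM in replicates 2 and 3. Among EV libraries replicate 2 stood apart, with Trib3 at 102.3 and 111.6 CPM against 23.2 to 46.8 CPM in the others, and with the lowest summed ER chaperone level (7829 and 7836 CPM, against 9231 to 11020). Without EV replicate 2 the ER calls were 1 higher and 4 lower without pioglitazone and 1 higher and 7 lower with it, and the cytosolic ones 10 higher and 3 lower, and 14 and 4. The part of this library difference in the results was tested only by leaving the library out. Without pioglitazone, leaving out PPFP replicate 1 ended the calls of Hsp90aa1 (log2 fold change 0.37, adjusted p = 0.10), Cct3 (0.32, 0.096), Cct5 (0.28, 0.10), Hspa4 (0.24, 0.10), Dnajb11 (0.40, 0.072) and Hspa12b (−0.87, 0.056). It brought in Hyou1 (−0.48, adjusted p = 0.024), Dnajc4 (0.34, 0.044) and the uncertain Hspa1b (1.41, 0.045) beside Hspa8, and let Dnajb7 and Hspb7 pass the count filter through the group where each is high. Of J proteins named after their values were seen, Dnajc16 was lost (−0.25, 0.10) and Dnajc14 gained (0.42, 0.048).

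Of the cytosolic HSP90 genes 1 of 2 was called. Hsp90aa1, the inducible form, was at 1086, 975.1 and 1394 CPM in EV and 2088, 1411 and 1472 CPM in PPFP cells (log2 fold change 0.55 ± 0.18, adjusted p = 0.040). This call was lost without EV replicate 1 or 2 or PPFP replicate 1 or 3 (adjusted p up to 0.12). With pioglitazone the difference was 0.75 (adjusted p = 0.015, and 0.061 without EV replicate 1). For Hsp90ab1, the constitutive form, it was 0.21 ± 0.14 (adjusted p = 0.24).

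Of 4 small HSPs tested without pioglitazone Hspb1 was higher and Hspb6 lower, the latter named after its values were seen. Hspb2 was counted as lower too, but it passed the filter on low counts only through EV libraries. The Hspb6 call (−0.41, adjusted p = 0.019) was lost without PPFP replicate 3 (0.072), and with pioglitazone its difference was −0.10 (adjusted p = 0.61). Hspb1 (HSP27 in humans, HSP25 in mice), the stress-inducible one, was at 27.9, 40.8 and 38.1 CPM in EV and 69.8, 70.5 and 68.3 CPM in PPFP cells (log2 fold change 0.99 ± 0.14, adjusted p = 0.00091). With pioglitazone it was higher by 0.90 (adjusted p = 0.018, lost without EV replicate 1 or 3, up to 0.055). Hspb2 and Hspb7, known from muscle, had few counts, and their ratios (summed counts, scaled for library size) are given without a test. Hspb2 had 13 to 15 counts per library in EV cells and 3 to 6 in PPFP cells, a ratio of EV to PPFP of 2.83. With pioglitazone it had 14 to 20 counts per EV library and 1 in each PPFP library, a ratio of 15.6. Hspb7 had 15 to 36 counts per EV library and 1 to 4 per PPFP library with pioglitazone, a ratio of 10.7.

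TRiC is a double ring of 8 different subunits that folds actin and tubulin. Of its subunit genes Cct2, Cct3, Cct5, Cct6a and Cct8 were higher in PPFP cells, and Tcp1, Cct4 and Cct7 did not pass the test. Cct2 was at 445.8, 391.7 and 536.6 CPM in EV and 954.4, 714.5 and 773.1 CPM in PPFP cells (log2 fold change 0.85 ± 0.14, adjusted p = 0.0022). Cct8 differed by 0.67 ± 0.13 (adjusted p = 0.0049) and Cct6a by 0.64 ± 0.16 (adjusted p = 0.012, and 0.052 without EV replicate 1). Cct3 differed by 0.47 (adjusted p = 0.041) and Cct5 by 0.40 (adjusted p = 0.044), and both calls were lost without EV replicate 1 or 2 or PPFP replicate 1 or 3 (up to 0.12 and 0.13). The same 5 were higher with pioglitazone, by 0.61 to 0.85, where without EV replicate 1 the adjusted p was 0.064 for Cct3 and 0.051 for Cct5. Cct7 was at 672.4, 615.9 and 819.3 CPM in EV and 765.8, 632.3 and 653.4 CPM in PPFP cells (−0.016 ± 0.12, adjusted p = 0.93), and Cct4 differed by 0.017 ± 0.11 (adjusted p = 0.91). Whether the subunits differ from each other was not tested.

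**Figure D2:**
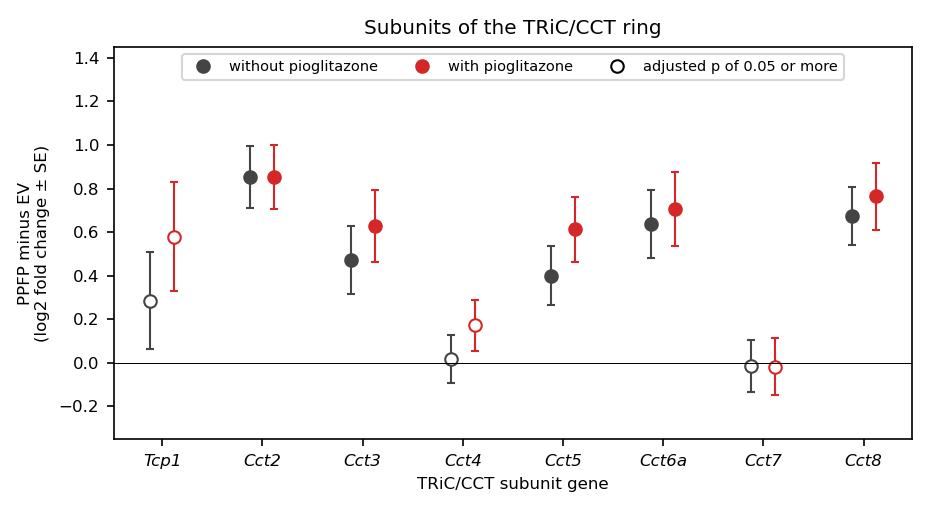
Log2 fold change of PPFP over EV cells with its standard error for the 8 subunit genes of the TRiC ring, without (grey) and with (red) pioglitazone, n = 3 libraries per group; filled points passed an adjusted p under 0.05. Cct2 is highest at 0.85 in both, and Cct4 and Cct7 lie near 0.

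Genes that work beside the cytosolic chaperones were also more often higher. Of 21 co-chaperones and heat shock factors 10 were higher and 1 (Hsf2) was lower in PPFP cells, and 10 were higher and none lower with pioglitazone. These are 47.6% higher and 4.76% lower without pioglitazone, against 22% and 23.1% of all genes, and 47.6% higher with it, against 26.3%. Bag3, an HSP70 exchange factor of selective autophagy, was higher by 0.91 (adjusted p = 0.00016), Pfdn5, a subunit of prefoldin, which delivers actin and tubulin to TRiC, by 0.85 (adjusted p = 0.00015) and Ptges3 (p23 of the HSP90 cycle) by 0.84 (adjusted p = 0.0021). Hsf1, named after its values were seen, was at 69.7, 71.4 and 75.9 CPM in EV and 124.9, 117.6 and 111.9 CPM in PPFP cells (0.73 ± 0.075, adjusted p = 0.00023).

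In the ER, Hsp90b1 was 1 of 2 genes that were higher. It was at 1683, 1153 and 1954 CPM in EV and 4313, 3565 and 3671 CPM in PPFP cells, 2.45-fold higher (log2 fold change 1.29 ± 0.18, adjusted p = 0.0010), and 0.99 ± 0.23 higher with pioglitazone (adjusted p = 0.0097). All PPFP libraries were above all EV libraries, the nearest with pioglitazone being 2012 CPM in EV and 2775 CPM in PPFP cells. The other was Dnajb11, a soluble BiP partner, by 0.49 (adjusted p = 0.026) and 0.41 (adjusted p = 0.042). Its first call was lost without EV replicate 1 or 2 or PPFP replicate 1 or 3 (up to 0.073), and its second without any of 5 libraries, all but EV replicate 3 (up to 0.12). Hspa5 was at 799.2, 594.2 and 885.2 CPM in EV and 796.1, 532.8 and 535.7 CPM in PPFP cells (−0.27 ± 0.19, adjusted p = 0.30), and the groups overlapped.

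With pioglitazone, Hspa5 was at 725.4, 645.4 and 918.1 CPM in EV and 616.0, 425.0 and 434.2 CPM in PPFP cells (−0.61 ± 0.18, adjusted p = 0.026). This call was lost without EV replicate 1 or 3 or PPFP replicate 2 or 3 (up to 0.084). Hyou1, the ER member of the HSP110 group and an exchange factor of BiP, was then lower by 0.56 ± 0.14 (adjusted p = 0.012), beside −0.34 ± 0.15 without pioglitazone (adjusted p = 0.10, and 0.024 at −0.48 without PPFP replicate 1). Of the disulfide isomerases only Pdia5 passed the test: it was at 52.2, 53.5 and 58.6 CPM in EV and 39.2, 32.2 and 32.1 CPM in PPFP cells (−0.64 ± 0.10, adjusted p = 0.0017; −0.92 with pioglitazone, adjusted p = 0.00045). For P4hb, Pdia3, Pdia4 and Pdia6 the differences without pioglitazone were 0.066, 0.30, 0.15 and 0.47, with adjusted p of 0.66, 0.11, 0.24 and 0.056. The lectins Calr (0.23, adjusted p = 0.36) and Canx (−0.069, adjusted p = 0.56), which hold glycoproteins during folding, did not pass either.

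Xbp1 was lower in every PPFP library. It was at 97.3, 108.2 and 91.3 CPM in EV and 64.2, 64.5 and 63.7 CPM in PPFP cells (log2 fold change −0.61 ± 0.092, adjusted p = 0.0014), and with pioglitazone at 95, 107.6 and 89.4 against 42.6, 50.7 and 48.6 CPM (−1.01 ± 0.11, adjusted p = 0.00026). Its activator Ern1 differed by −0.15 ± 0.21 (adjusted p = 0.60). These counts do not separate the spliced from the unspliced Xbp1 transcript. Hspb11, which carries a small-HSP name but is an intraflagellar transport protein (IFT25), was lower by 0.54 (adjusted p = 0.017) and was called lower with pioglitazone too (adjusted p = 0.0025). The first call was lost without EV replicate 1 (0.067).

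The 9 genes whose windows hold either form of the ER stress element did not share a direction between the lines. Without pioglitazone Hsp90b1 and Dnajb11 were higher, Dnajc3 and Xbp1 lower and 5 not called. With pioglitazone 2 were higher and 4 lower. For pioglitazone against vehicle in PPFP cells, a fit with replicate numbers as blocks called 1 higher and 5 lower, with 3 not called. Without the block only Xbp1 of these was called. Among 34 further genes of ER quality control and the UPR, 5 were higher and 4 lower without pioglitazone and 6 and 6 with it. These shares (14.7% and 11.8%, then 17.6% each) were below those of all genes (22% and 23.1%, then 26.3% and 26.4%). The largest difference was in Wfs1, an ER membrane protein of calcium balance, at 171.5, 140.1 and 171.1 CPM in EV and 645.0, 584.2 and 552.5 CPM in PPFP cells (1.91 ± 0.11, adjusted p = 1.6e-05). Derl3 and Fkbp14 were higher by 0.99 and 0.74, and Ppib, Atf6b and Ganab lower by 0.45, 0.39 and 0.35.

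In mitochondria, Hspd1 was higher in PPFP cells and higher again with pioglitazone. It was at 501.6, 482.9 and 626.4 CPM in EV and 874.1, 678.1 and 736.2 CPM in PPFP cells (log2 fold change 0.53 ± 0.13, adjusted p = 0.012, and 0.051 without EV replicate 1). With pioglitazone it was at 469.6, 486.3 and 607.6 in EV and 1241, 1001 and 1002 CPM in PPFP cells (1.08 ± 0.13, adjusted p = 0.00047). In neither treatment did the groups overlap. Hspe1 differed by 0.20 ± 0.12 without pioglitazone (adjusted p = 0.19) and was higher by 0.44 with it (adjusted p = 0.012, and 0.058 without EV replicate 1). For Hspa9 (mortalin, the mitochondrial HSP70) the values were 0.19 (adjusted p = 0.34) and 0.45 (adjusted p = 0.051). Of 12 mitochondrial co-chaperones and proteases 4 were higher and 1 lower without pioglitazone, and 6 higher and none lower with it. The shares higher were 33.3% and 50%, against 22% and 26.3% of all genes. Hscb, a J protein of iron-sulfur cluster assembly, was highest of these (0.90 and 1.15, adjusted p = 0.00080 and 7e-05).

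**Figure D3:**
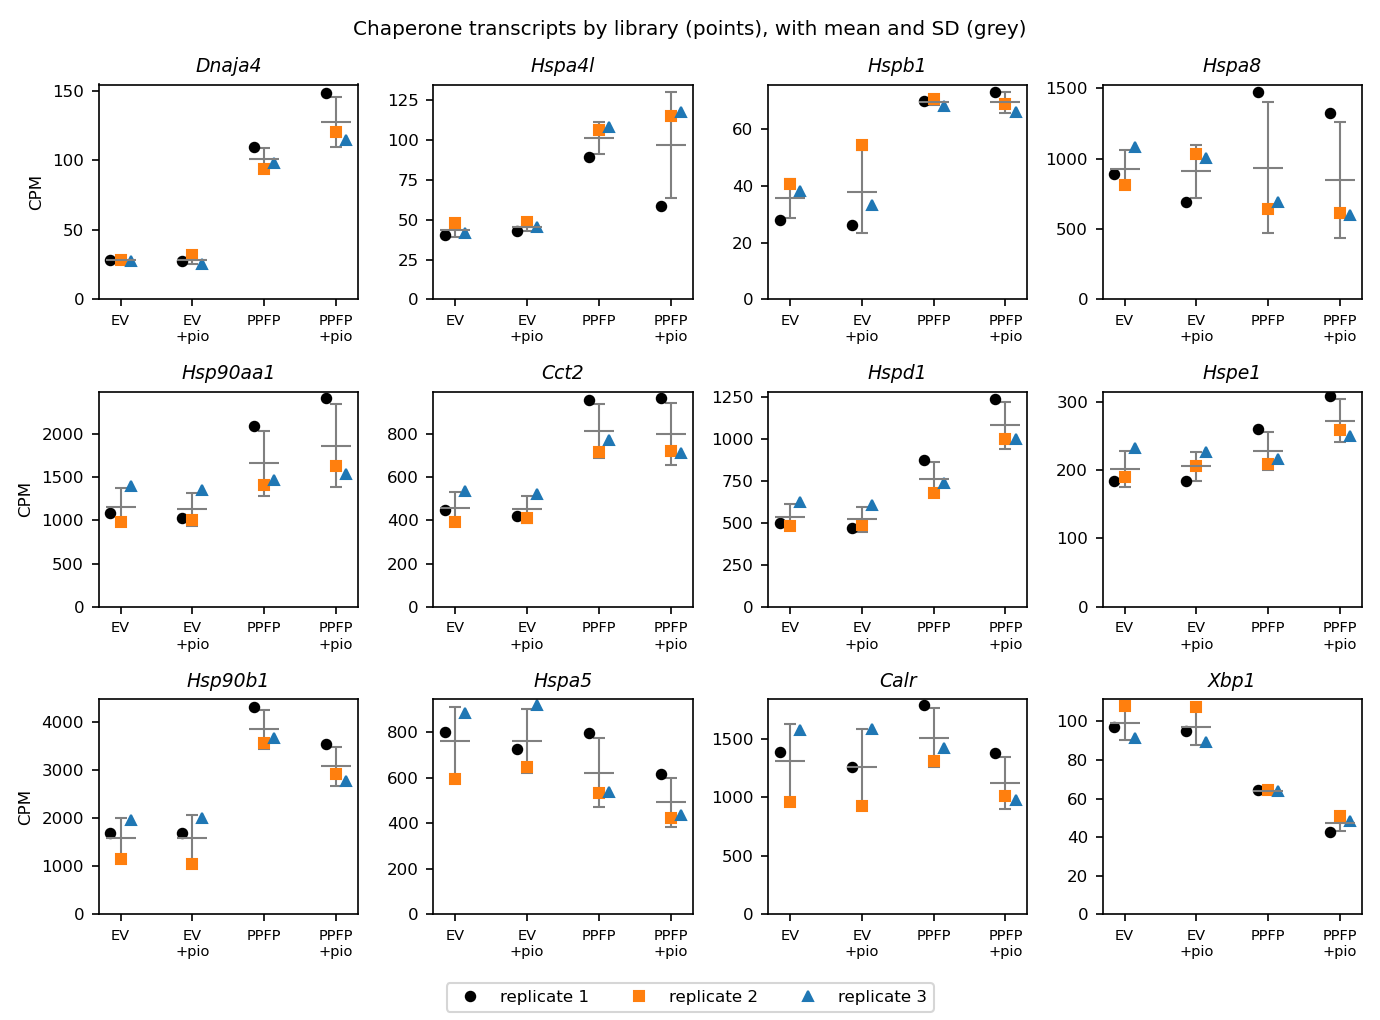
TMM-scaled CPM of 12 chaperone genes in every library of the 4 groups (EV and PPFP cells, without and with pioglitazone), with replicate numbers as symbols and the group mean ± SD (n = 3) in grey; each y axis starts at 0. Dnaja4, Hspa4l, Hspb1, Cct2, Hspd1 and Hsp90b1 are higher and Xbp1 lower in all PPFP libraries, while Hspa8 is high in replicate 1 of PPFP cells alone.

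The summed CPM of each compartment, which is weighted by transcript length, was compared next. The cytosolic genes summed to 10260 ± 1438 CPM in EV and 12690 ± 2444 CPM in PPFP cells (SD, n = 3), with 15500 CPM in PPFP replicate 1 and 11020 and 11560 CPM in the others, so the groups overlapped. Mitochondrial genes summed to 1457 ± 98.9 CPM in EV and 1784 ± 152 CPM in PPFP cells, and to 1467 ± 127 and 2281 ± 156 CPM with pioglitazone. ER genes summed to 9401 ± 1549 and 11870 ± 1271 CPM, and to 9362 ± 1595 and 10290 ± 1095 CPM with pioglitazone. The ER groups overlapped, with 10930 CPM in EV replicate 3 and 10900 CPM in PPFP replicate 2. With pioglitazone EV replicate 3 stood at 11020 CPM and PPFP replicate 3 at 9504 CPM. Hsp90b1 alone had means of 1597 and 3850 CPM, and of 1581 and 3078 CPM with pioglitazone. The ER sums are thus no measure of ER chaperones in general. No test was run on these sums.

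The next comparison asked what pioglitazone did within each line. In PPFP cells, libraries with the same replicate number deviated together, so results with a replicate block are given beside the plain ones. Replicates 2 and 3 deviated together across their numbers too, so which of these libraries form pairs is uncertain. Without the block 5 genes were higher and 1 lower of 76 (background 7.63% higher and 7.13% lower of 10064 genes). With the replicate block 22 were higher and 23 lower (background 27.7% higher and 23.9% lower). Scaled by library size alone the blocked split was 15 higher and 30 lower, and without the pair of replicate 2 it was 13 higher and 25 lower. By compartment the blocked fit called 12 higher and 7 lower of 37 cytosolic genes, 4 higher and 1 lower of 6 mitochondrial genes, and 2 higher and 12 lower of 24 ER genes (median −0.114, against 0.0125 over all genes). The 6 genes called without the block were Hspa12a, Dnajb7, Hspd1, Dnajc4, Hspa9 and Xbp1. Dnajb7 passed the filter on low counts only through the libraries with pioglitazone. Its call, counted among the higher genes of both fits and of the cytosol, is therefore no test of a difference. Leaving out 1 library left between 1 and 6 calls: 1 without PPFP vehicle replicate 3, and 2 without vehicle replicate 2 or without pioglitazone replicate 2 or 3. Hspa12a was called under every alternative run. Of the 8 thyrocyte markers 1 rose and 5 fell without the block, Tg among the latter (by 0.47, adjusted p = 0.00092), and their part in the chaperone results was not tested.

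Of the 6 mitochondrial genes 4 rose, 1 fell and 1 was not called with pioglitazone in PPFP cells in the blocked fit, and without the block only Hspd1 and Hspa9 were called. Hspd1 rose in each pair of libraries, by 0.51, 0.56 and 0.44 on the log2 scale (fitted 0.51 ± 0.037, adjusted p = 3.9e-11 with the replicate block, 0.033 without). In EV cells its pair differences were −0.095, 0.010 and −0.044. Hspe1 rose by 0.24, 0.31 and 0.21 (adjusted p = 1.2e-06 with the block, 0.17 without) and Hspa9 by 0.23, 0.38 and 0.34 (adjusted p = 1.9e-07, 0.017 without). Hspa9 and Hspd1 lost the call of the plain fit when single libraries were left out (adjusted p up to 0.33 over all alternatives and 0.13), but not in any alternative that kept the block. The HSP70 partners Grpel1 and Grpel2, which exchange nucleotide on mortalin, rose by 0.46 and 0.61, and the protease Lonp1 by 0.36 (adjusted p = 1.2e-09, 7.5e-08 and 1.1e-08 with the block). In the blocked fit 8 of the 12 mitochondrial co-chaperones and proteases rose (66.7%, against 27.7% of all genes) and 1 fell, and in the plain fit 3 rose and none fell. Dnajc11, a J protein of the inner-membrane organising complex, fell by 0.22 (adjusted p = 0.00015, 0.40 without the block).

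Of the 24 ER genes 12 fell, 2 rose and 10 were not called with pioglitazone in PPFP cells in the blocked fit, and without the block only Xbp1 was called. Xbp1 fell in each pair, by 0.59, 0.35 and 0.39 (adjusted p = 1.2e-07 with the replicate block, 0.018 without, and up to 0.076 in the plain fit without vehicle replicate 2 or 3). Calr fell by 0.38, 0.38 and 0.55 (adjusted p = 1.3e-09, 0.14 without), Hspa5 by 0.37, 0.33 and 0.30 (2.2e-08, 0.34 without) and Hsp90b1 by 0.28, 0.29 and 0.40 (2.8e-08, 0.097 without). All 3 pairs of PPFP cells went down for these genes, while pairs of EV cells went both ways for Calr, Hspa5 and Hsp90b1, and for Xbp1 differed by −0.035, −0.0082 and −0.030. Sdf2l1, a BiP cofactor, fell by 0.35 (adjusted p = 8.8e-06, 0.14 without the block). Pdia6 fell by 0.22 (2e-05, 0.14 without), Pdia5 by 0.24 (0.00062, 0.28 without), Pdia4 by 0.18 (0.00010, 0.20 without), Pdia3 by 0.16 (0.00040, 0.16 without) and Hyou1 by 0.15 (0.0017, 0.59 without), all adjusted p with and without the block. Ern1 and Creld2 rose, by 0.31 (adjusted p = 0.00017, 0.22 without the block) and 0.14 (0.011, 0.54 without). The Creld2 call of the blocked fit was lost with DESeq2, with scaling by library size alone, and without the pair of replicate 2 or 3. Among the 24 ER genes, 14 went down in all 3 PPFP pairs and 5 went up in all 3, compared with 4 and 5 in EV cells. Of all genes 32.8% went down and 37.1% up in all 3 PPFP pairs, and 14.4% and 14% in EV cells.

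**Figure D4:**
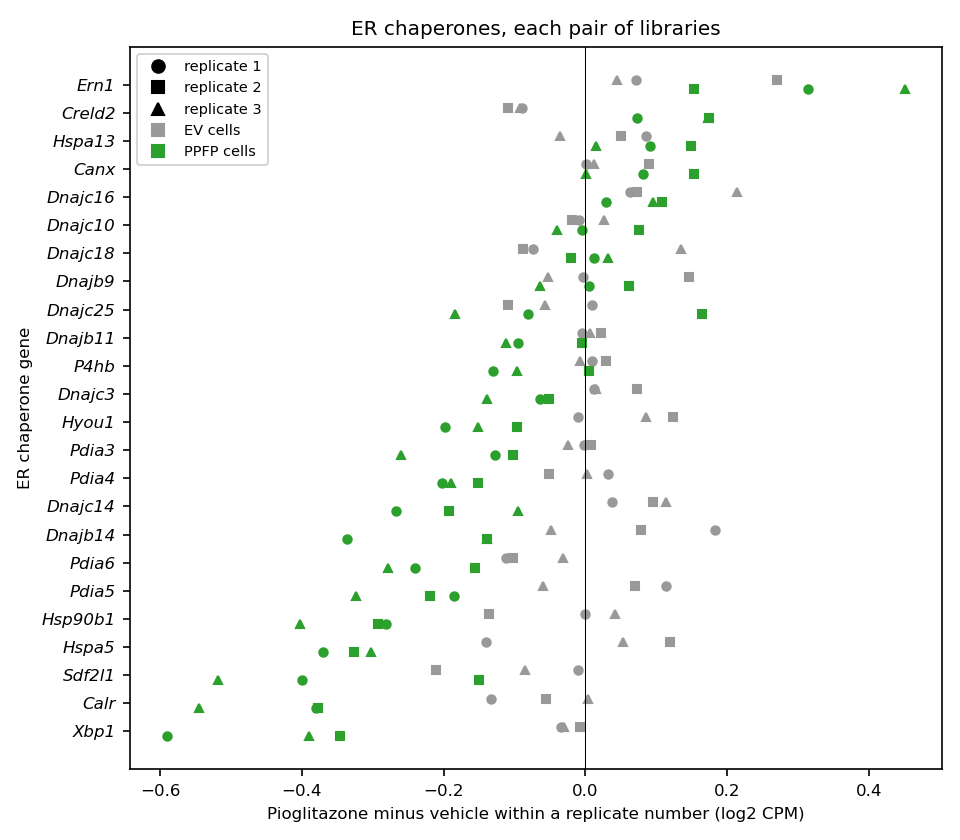
Difference in log2 CPM between pioglitazone and vehicle within each replicate number, for the 24 tested ER chaperone genes, in PPFP cells (green) and EV cells (grey), with symbols for replicates 1 to 3. In PPFP cells all 3 points lie below 0 for 14 genes, from Xbp1 and Calr at the bottom, whereas EV points scatter about 0.

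Other genes of the ER stress response went both ways. Of the 34 genes of ER quality control and the UPR 12 rose and 11 fell in PPFP cells with the replicate block, or 35.3% and 32.4% against 27.7% and 23.9% of all genes. The largest rises were in Trib3 (0.86), Ddit3 (CHOP, 0.73) and Atf4 (0.64), which belong to the PERK and ATF4 arm (adjusted p = 1.3e-12, 5.9e-10 and 1e-12). Atf4 was at 146.8, 328.9 and 359.8 CPM with vehicle and 251.7, 513.9 and 513.1 CPM with pioglitazone, higher in every pair though the groups overlapped. The largest falls were in Fkbp11, Manf and Atf6b (0.52, 0.30 and 0.29, adjusted p = 2.6e-08, 9.8e-05 and 3.7e-06). Without the block only Fkbp11, Atf6b and Derl1 of this list were called. In EV cells with the block, Trib3 differed by 0.37 and Atf4 by 0.14 (adjusted p = 0.64 and 0.78).

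Cytosolic chaperones responded in both directions. Hspa12a rose by 1.06 ± 0.12, from 4.88, 5.29 and 3.71 CPM to 9.37, 9.14 and 10.5 CPM (adjusted p = 4.1e-08 with the replicate block, 0.0064 without). Dnajb7, which passed the filter only through the libraries with pioglitazone and is therefore given without a test, had 8 to 12 counts with vehicle and 20 to 32 with pioglitazone. Dnaja4 rose by 0.43, 0.36 and 0.22 in the 3 pairs (adjusted p = 2.9e-07, 0.081 without the block). Hsp90aa1, Tcp1 and Cct5 rose by 0.16, 0.18 and 0.18 (adjusted p = 0.00072, 9.6e-05 and 0.00031, and 0.66, 0.69 and 0.51 without the block), while Hsph1 and Hspa8 fell by 0.17 and 0.14 (0.00032 and 0.0036, and 0.78 and 0.87 without). The Hspa8 call was lost without the pair of replicate 3. Of the 21 cytosolic co-chaperones and heat shock factors 9 rose and 3 fell in the blocked fit (42.9% and 14.3%, against 27.7% and 23.9% of all genes), led by Chordc1 (0.30) and Cryab (−0.33), and none was called in the plain fit. Of the genes placed elsewhere, Dnajc4 rose by 0.46 (adjusted p = 1.5e-06, 0.015 without the block), and the call of the plain fit was lost without vehicle replicate 3 or pioglitazone replicate 2 or 3 (up to 0.068). Further J proteins called only with the block were Dnajc28 (0.49, adjusted p = 0.00056), Dnajc17 (0.26, 0.030) and Dnajc21 (0.15, 0.040), which rose, and Dnajb4 (−0.20, 0.0069), Dnajb14 (−0.20, 0.016), Dnajc14 (−0.18, 0.0016) and Dnajb2 (−0.17, 0.0073), which fell. Of these, Dnajc28 and Dnajc14 kept the call in every alternative with the block.

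In EV cells no chaperone gene was called with pioglitazone. Of 77 tested, 0 were called by edgeR (0 at an unadjusted p under 0.05), 0 by DESeq2, and 0 with the replicate block (7 at an unadjusted p under 0.05). Of all 10146 genes 0% were called without the block and 0.00986% (1 gene) with it. The medians of the blocked log2 fold changes were 0.0021 in the cytosol, 0.0063 in the ER and 0.017 in mitochondria.

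**Figure D5:**
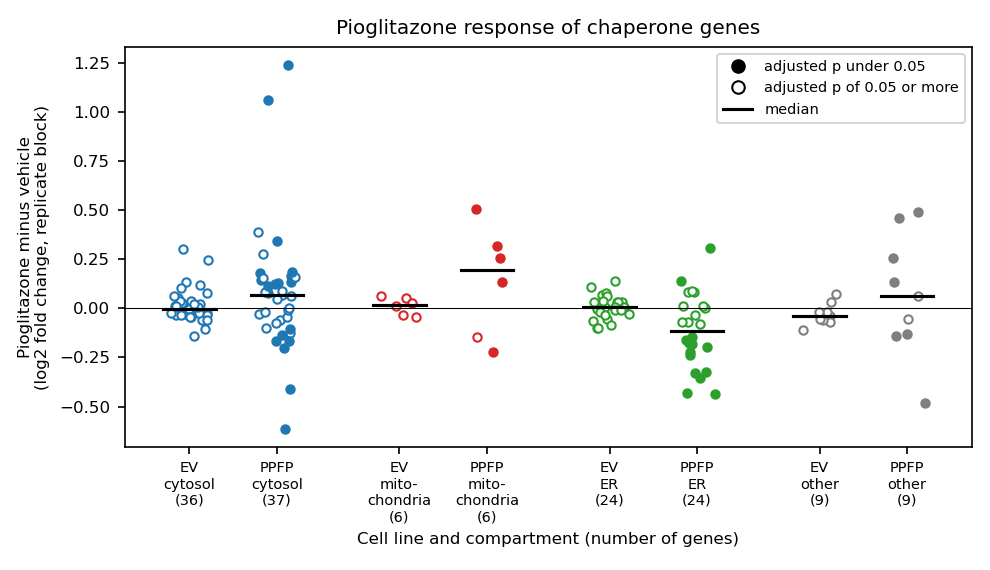
Log2 fold change with pioglitazone in the fit with the replicate block, one point per chaperone gene, in EV and PPFP cells by compartment, with the median as a bar and filled points at an adjusted p under 0.05 (Hspb2 and Hspb7 are left out for low counts). EV points lie around 0 in every compartment, and in PPFP cells the ER median is −0.114 and the mitochondrial one 0.20.

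Whether the response to pioglitazone differed between the lines was tested as an interaction over all 12 libraries. Without a block no chaperone gene of 78 passed by edgeR or by DESeq2 (5 at an unadjusted p under 0.05 in each), where 2.64% of all 10482 genes did. With the replicate number as a block within each line 34 passed, 15 with a more positive and 19 with a more negative response in PPFP cells (background 34.3% in either direction). With DESeq2 and the block 12 were more positive and 10 more negative, and scaled by library size alone 12 and 22. In the blocked edgeR fit the 24 ER genes tested made up 12 of the 19 and 1 of the 15 (median −0.138, against −0.00385 over all genes). The share of all genes in each direction was not counted. Hspd1 differed by 0.54 ± 0.051 (adjusted p = 3.7e-06, 0.20 without the block), Hspa9 by 0.25 (0.0019, 0.81 without) and Hspe1 by 0.22 (0.0050, 0.69 without). Xbp1 differed by −0.42 ± 0.061 (adjusted p = 0.00012, 0.17 without the block), Calr by −0.38 (0.00027, 0.74 without), Hspa5 by −0.35 (0.00082, 0.75 without) and Hsp90b1 by −0.30 (0.0015, 0.81 without). None of these 7 genes passed without the block.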

How the data were processed

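RNA-seq was analysed from 12 libraries. Per the labels and the study's methods, the authors aligned 50-nt paired reads to rn4 with TopHat2 (2.0.11) and deposited unnormalized integer counts per gene symbol from HTSeq (0.6.1p1, intersection-strict mode), which leaves out reads that fit several places. Genes with near-identical copies or pseudogenes may therefore be undercounted. No strand setting is given in the sources used here.

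Counts were filtered with filterByExpr (minimum count 10), scaled by TMM and tested with edgeR 4.0.16 in R 4.3.3 (quasi-likelihood test, Benjamini-Hochberg adjustment over all genes), on the 6 libraries of the 2 groups compared or on all 12 for the interaction. An adjusted p under 0.05 was called. Standard errors were computed from the F statistic. CPM used TMM factors over 12 libraries (0.926 to 1.05), and pair differences a prior count of 1. The code was checked on simulated counts. DESeq2 1.42.0 was an alternative. Promoter windows were searched in Python 3.11.15 (pandas 2.3.3, matplotlib 3.10.9).

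Correlations of deviations from the group means were 0.688, 0.404 and 0.364 between same-numbered PPFP libraries without and with pioglitazone and 0.482, 0.682 and 0.729 in EV cells, so these numbers were taken as pairs from the data. Between the lines they were negative in part and were not. In PPFP cells replicates 2 and 3 also resembled each other. Across these 2 numbers the correlations were 0.482 and 0.299, the first above the same-number values of 0.404 and 0.364. The pairing of replicates 2 and 3 of PPFP cells is therefore uncertain.

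The genes, gene lists and tests were chosen with earlier results of these data known. Of small HSPs and J proteins the text draws its names from the 6 largest called changes per direction and comparison, and of the gene lists from the 3 largest; other families may be named in full. The ChIP peak lists were not used here, because their rn4 positions have no matching annotation in the tables used.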

Additional observations from a re-analysis of the deposited data

Results flagged for a closer look

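With the replicate block the response to pioglitazone differed between the lines for 34 of 78 chaperone genes, against 34.3% of all genes tested, and without the block for none. Those at least 0.4 apart on the log2 scale were Hspa12a (0.801), Hspd1 (0.539) and Dnajc28 (0.532), with a more positive response in PPFP cells, and Hspb2 (−2.35), Hspb11 (−0.475) and Xbp1 (−0.424), with a more negative one. The adjusted p values with the replicate block were 0.0065, 3.7e-06 and 0.0071 for the first 3, and 0.0020 and 0.00012 for Hspb11 and Xbp1 (edgeR). The Hspb2 value is no test of a difference: the gene had 1 count in each PPFP library with pioglitazone and passed the filter on low counts only through EV libraries, so the fitted value depends on the prior count. Dnajc28 was not called by DESeq2 with the block.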

How the results depend on the processing

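No called chaperone gene changed direction under any alternative run. Of 30, 36 and 6 genes called without pioglitazone, with it, and for pioglitazone in PPFP cells, 14, 19 and 1 stayed called under all alternatives, and of the 45 called for pioglitazone in PPFP cells with the block, 5 did. With 1 library left out, the counts ranged from 19 to 34 (19 without EV vehicle replicate 1), from 23 to 37 (23 without EV pioglitazone replicate 1) and from 1 to 6. For pioglitazone in PPFP cells the count was 45 with the replicate block and 39 without both PPFP libraries of replicate 1, an alternative added after seeing the data. From the 45 of the paired fit it was 6 without the block and 31 with DESeq2, and 37 to 39 with 1 pair left out. For the interaction it was 0 without and 34 with the block within each line, and from those 34 it was 0 without the block, 22 with DESeq2 and 25 to 32 with 1 pair left out. The block combined with another setting was also added after seeing the data. Between the lines, the replicate block gave 27 and 34 calls, where the numbers did not pair the libraries (correlations −0.236, 0.283 and −0.292 without pioglitazone). In EV cells the count was 0 throughout. Peak alternatives (q under 0.01, 1 kb) were not run. Depth limits, among the genes with values in the text, Hspb2, Hspb7, Dnajb7, Dnajb13, Hspa1b, Hspa2, Hspa12b and Derl3, which had fewer than 100 counts in every library.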
